A study of Mus musculus with 16 samples.

Results

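The Hox genes of immortalized mouse preadipocytes were followed through adipocyte differentiation and after interleukin-13 (IL-13). Members were taken by name, as every gene listed as Hoxa, Hoxb, Hoxc or Hoxd with a number and nothing more, which gave 38 of the 41325 genes in the deposited tables. They comprised 11 Hoxa genes on chromosome 6, 10 Hoxb genes on chromosome 11, 9 Hoxc genes on chromosome 15 and 8 Hoxd genes on chromosome 2. Hoxd4 was listed under 2 names with suffixes, which held 1 and 0 counts over all libraries, and so fell outside the rule. The cells were wild-type preadipocytes of strain C57Bl6/J, and the labels do not name the fat depot they came from. Per the labels some cells had 16 h of IL-13 before differentiation began and the rest had none, and RNA was collected on day 6 or day 0. This gave 4 groups of 4 libraries, namely day 6 with IL-13 pre-treatment, day 6 untreated, day 0 with IL-13 pre-treatment and day 0 untreated. The labels do not state whether separate cultures lie behind the 4 libraries of each group, so the p-values rest on a spread that may be technical. The line is immortalized, which limits it as a model of primary preadipocytes.

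Hox genes encode homeodomain transcription factors that give cells their position along the body axis. Within a cluster the genes are transcribed in the same direction, and genes with low numbers act towards the head while those with high numbers act towards the tail and the tips of the limbs. Genes with the same number in different clusters are paralogs. Cultured fibroblasts and adipose precursors keep much of the Hox pattern of their site of origin, Hox proteins bind DNA together with TALE homeodomain proteins such as Pbx and Meis, and Polycomb and Trithorax complexes hold Hox clusters silent or active.

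Library totals ran from 15253031 to 18112087 counts, with 15447 to 16201 genes having at least 1 count. Differentiation was visible in its markers. All 9 tested of 10 adipocyte markers were higher at day 6 in untreated and in IL-13 pre-treated cells. Of these, 5 also passed the filter on low counts at day 0. Adipoq, Cidec, Plin1 and Cfd were tested only because of their day 6 level, so the filter favoured their rise. The 10 markers summed to 26236 to 28126 CPM (counts scaled to library size) in day 6 IL-13 libraries, 25016 to 27127 in day 6 untreated, 507 to 528 in day 0 IL-13 and 525 to 564 in day 0 untreated libraries. Of other cell types, the 9 macrophage markers summed to 3.46 to 4.65, 2.38 to 4.24, 9.35 to 11.99 and 6.72 to 9.21 CPM in the same order of groups, with Adgre1 and Tyrobp at 0 in every library and Ptprc near 0. The 6 endothelial markers summed to 0.816 to 1.24, 0.754 to 1.25, 3.74 to 3.90 and 3.43 to 4.07 CPM, so both sums were lower at day 6, although of 5 tested macrophage markers Fcer1g and Cd68 rose with IL-13 (log2 change 3.75 ± 0.67 and 0.83 ± 0.22) and Fcer1g rose without (1.64 ± 0.50). Fcer1g held 0 to 7 counts in the day 0 libraries and was tested only because of its day 6 level, so the filter favoured its rise. The 9 preadipocyte markers summed to 406 to 477, 415 to 514, 1289 to 1346 and 1192 to 1282 CPM. Of 8 tested, 7 were lower and 1 higher at day 6 with IL-13, and 5 were lower and 1 higher without. Of these, 7 also passed the filter at day 6. In untreated libraries Zfp423 had 23.5 to 24.7 CPM at day 6, against 4.56 to 6.62 at day 0. Pdgfra had 299 to 385 CPM at day 6, against 337 to 377 at day 0. The 6 skeletal muscle markers summed to 15.8 to 24.7, 15.1 to 17.9, 5.69 to 8.96 and 8.62 to 11.6 CPM, with Ckm, Myod1 and Pax7 at 0 in every library. At day 6 this sum was mostly Des, and at day 0 every library held more Acta1 than Des. The part of these lists in the Hox differences was not tested. Because the libraries are bulk RNA, fewer cells of a type and less RNA per cell cannot be told apart. Libraries of day 6 and day 0 also lie in separate tables, so day and table cannot be told apart.

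The cells expressed 3 of the 4 Hox clusters. Of the 38 genes, 29 passed the filter on low counts over the 16 libraries, comprising all 11 Hoxa genes, 9 of 10 Hoxb genes, all 9 Hoxc genes and no Hoxd gene. Hoxb1, Hoxd1, Hoxd3, Hoxd10, Hoxd11, Hoxd12 and Hoxd13 had 0 counts in every library, which at 265792364 counts in all allows a level of up to 0.0113 CPM (3 counts, for counting error only). Hoxd8 and Hoxd9 together had 9 counts. The non-expressed genes thus took in the most anterior Hoxb gene, which acts in the hindbrain, and a whole cluster whose members pattern limbs and trunk.

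Levels between genes are given as the deposited TPM values, transcript levels corrected for length and depth. Hoxc10, which is known from hindlimb and lumbar patterning and from mouse subcutaneous fat, where it restrains thermogenic genes, stood first of the Hox genes in every group. Its TPM was 86.7 ± 6.00 in day 6 IL-13, 83.6 ± 3.33 in day 6 untreated, 183 ± 3.88 in day 0 IL-13 and 179 ± 8.77 in day 0 untreated libraries (mean ± SD, n = 4). Hoxa10, a gene of the reproductive tract and limb, had the next mean with 45.0 ± 4.20, 55.7 ± 3.06, 43.1 ± 3.49 and 60.5 ± 6.98 TPM in the same order of groups, but in day 0 IL-13 libraries it did not differ from Hoxc6 beyond their spread. Below these the order depended on the day. At day 0 Hoxc6 (42.3 ± 2.49 TPM in IL-13 and 50.3 ± 4.97 in untreated libraries) and Hoxc13 (33.9 ± 2.75 and 47.3 ± 4.18 TPM) came next, and in untreated cells these neighbours did not differ beyond their spread. At day 6 Hoxa9 (23.1 ± 2.03 TPM in IL-13 and 30.6 ± 2.26 in untreated libraries), Hoxc6 (24.4 ± 2.31 and 29.4 ± 1.21 TPM) and Hoxa4 (21.5 ± 0.945 and 24.8 ± 2.74 TPM) lay close together.

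**Figure D1:**
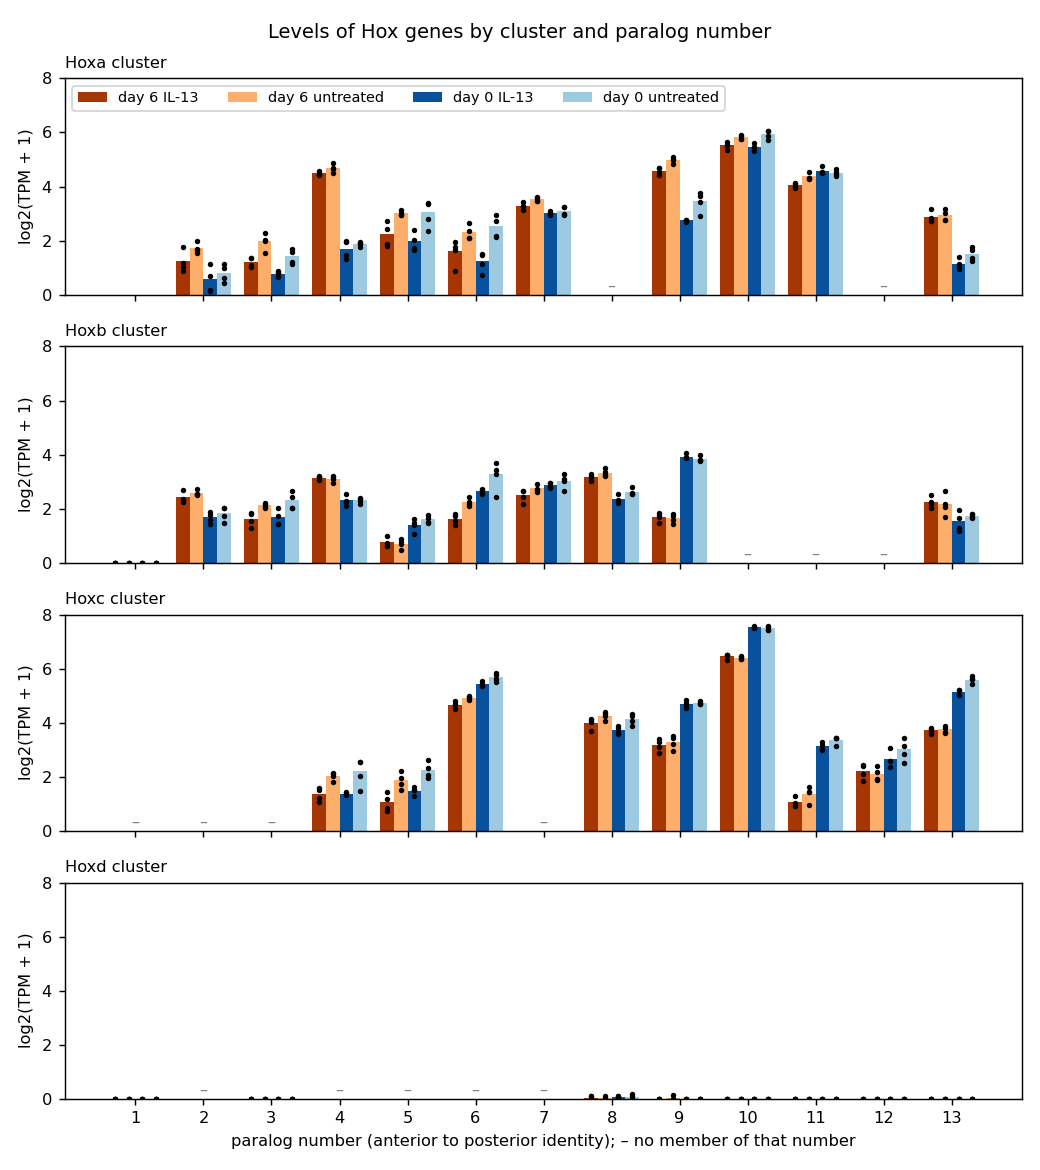
Levels of Hox genes as log2(TPM + 1) by paralog number, with a panel for each cluster, bars for the mean of 4 libraries and dots for single libraries in the 4 groups. Hoxc10 and Hoxa10 were the highest, the Hoxd panel was empty but for traces of Hoxd8 and Hoxd9, and a dash marks a number with no member in that cluster.

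The balance of clusters differed between the days. Hoxa genes held 49.4% ± 1.38 of all Hox counts in day 6 IL-13 libraries and 53.4% ± 1.25 in day 6 untreated libraries, against 26.3% ± 1.03 in day 0 IL-13 and 30.2% ± 2.01 in day 0 untreated libraries (SD, n = 4). Hoxc genes held 39.5% ± 1.26 and 35.9% ± 1.17 at day 6, against 63.7% ± 1.42 and 59.8% ± 2.45 at day 0, with IL-13 before untreated in each pair. Hoxb genes stayed close to level throughout, at 11.1% ± 0.409, 10.7% ± 0.277, 9.97% ± 0.408 and 9.97% ± 0.672. On deposited TPM the Hoxa share was 41.0% and 45.2% at day 6, against 20.6% and 23.9% at day 0. The Hoxc share on TPM was 47.9% and 43.8% at day 6, against 70.1% and 66.6% at day 0. On counts Hoxa thus led Hoxc at day 6. On TPM Hoxc led in day 6 IL-13 libraries, and the clusters were close in day 6 untreated libraries. High-numbered genes (9 to 13) held 67.4% ± 1.61 and 65.0% ± 1.01 of Hox counts at day 6, against 75.6% ± 1.01 and 72.8% ± 2.39 at day 0. All Hox genes together took 0.0272% and 0.0312% of counts at day 6, against 0.0318% and 0.0358% at day 0.

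Promoter windows of 250 bases before the transcript start were read from RefSeq (GRCm38.p6) for 21 of the 38 members, in 23 windows. Printed here are 4 genes that were higher at day 6, namely Hoxb8, Hoxa2, Hoxa9 and Hoxa13, and Hoxd13 as a gene with no counts. Capitals mark matches on either strand to TGATNNAT, the pattern of Hox-Pbx pairs, or to TTTATNG, the pattern bound by Cdx and posterior Hox proteins; a C/EBP pattern, TTGCNNAA, was searched as well.
Hoxb8: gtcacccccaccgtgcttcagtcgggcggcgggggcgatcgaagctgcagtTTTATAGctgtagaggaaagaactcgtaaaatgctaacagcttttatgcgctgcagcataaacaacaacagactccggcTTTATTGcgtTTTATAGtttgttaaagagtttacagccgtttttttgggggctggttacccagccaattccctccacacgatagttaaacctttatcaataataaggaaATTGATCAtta
Hoxa2: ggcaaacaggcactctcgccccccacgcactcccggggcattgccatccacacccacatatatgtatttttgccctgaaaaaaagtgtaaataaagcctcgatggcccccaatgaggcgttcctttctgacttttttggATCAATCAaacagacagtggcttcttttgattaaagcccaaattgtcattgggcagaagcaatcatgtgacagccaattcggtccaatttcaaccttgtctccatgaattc
Hoxa9: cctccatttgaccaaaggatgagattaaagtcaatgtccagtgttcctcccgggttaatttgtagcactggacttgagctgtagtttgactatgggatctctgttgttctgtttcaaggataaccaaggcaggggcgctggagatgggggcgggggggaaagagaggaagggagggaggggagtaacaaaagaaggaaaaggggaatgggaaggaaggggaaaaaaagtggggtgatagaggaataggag
Hoxa13: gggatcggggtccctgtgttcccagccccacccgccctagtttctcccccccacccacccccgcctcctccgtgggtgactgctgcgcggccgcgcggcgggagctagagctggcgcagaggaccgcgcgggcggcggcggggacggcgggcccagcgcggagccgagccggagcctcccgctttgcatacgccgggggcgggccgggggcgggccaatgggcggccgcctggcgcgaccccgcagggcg
Hoxd13: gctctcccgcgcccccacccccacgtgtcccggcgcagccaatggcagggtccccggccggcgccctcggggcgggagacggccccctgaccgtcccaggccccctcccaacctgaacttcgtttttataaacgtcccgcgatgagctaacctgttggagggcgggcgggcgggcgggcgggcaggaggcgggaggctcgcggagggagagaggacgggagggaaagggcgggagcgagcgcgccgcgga

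These windows lie at chr11:96281655-96281904 (plus strand) for Hoxb8, at chr6:52164832-52165081, chr6:52227371-52227620 and chr6:52260881-52261130 (minus strand) for Hoxa2, Hoxa9 and Hoxa13, and at chr2:74667975-74668224 (plus strand) for Hoxd13. The Hoxa9 window lies inside the span of the counted gene, chr6:52223100-52231089, so it precedes a transcript start within that gene. The Hoxb8 window held 3 matches to TTTATNG and 1 to TGATNNAT, and the Hoxa2 window held 1 match to TGATNNAT. Over all 32851 windows, TGATNNAT was found in 7.68%, TTTATNG in 9.81% and TTGCNNAA in 9.56%; over the 23 member windows they were found in 4, 1 and 2. The share of G and C was 80.0% in the Hoxa13 window and 74.4% in that of the silent Hoxd13, against a median of 52.4% over all windows, and 44.4% in the Hoxb8 window. The 9 Hoxd windows had 2 to 31 CpG dinucleotides with a median of 13, and the 14 windows of the other clusters had 3 to 35 with a median of 12.5. A match is a description of letters in these windows and shows no binding.

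Some Hox genes of the same cluster, or of the same number, differed between day 6 and day 0 in opposite directions. Day and table cannot be told apart, so the part of differentiation in these differences was not tested. Whether other sets of genes are as mixed in direction was not tested either. In untreated cells 11 of the 29 tested Hox genes were higher and 9 lower at day 6 than at day 0, against 41.5% and 39.0% of all 13157 tested genes (80.5% in either direction). In IL-13 pre-treated cells 12 were higher and 9 lower, against 40.6% and 40.3% of all genes (80.8% in either). The Hox genes were thus called at shares near or below those of all genes, so the counts are no result about the Hox genes, and the members' own values are given below. Hoxa2 passed the filter through its day 6 libraries alone and Hoxb5 through its day 0 libraries alone, so the filter favoured their rise and fall. Over the other 27 genes, 11 were higher and 8 lower with IL-13, and 10 were higher and 8 lower without. Adjusted p-values here and below are from edgeR's quasi-likelihood test with Benjamini-Hochberg adjustment over all tested genes, called under 0.05. The median log2 fold change was 0.12 over the Hox genes and 0.00 over all genes with IL-13, and 0.06 and 0.04 in untreated cells. Libraries of day 6 and day 0 did not overlap for 19 of 29 Hox genes with IL-13 and for 18 of 29 without, against 74.8% and 75.5% of all genes.

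In the Hoxa cluster, 6 genes were higher and none lower in untreated cells. Hoxa4, which patterns neck vertebrae, had 11.4, 11.1, 11.9 and 12.6 CPM in day 6 IL-13 libraries and 13.8, 12.2, 11.1 and 12.3 in day 6 untreated libraries, against 0.719, 1.46, 1.54 and 0.831 CPM in day 0 IL-13 and 1.13, 1.05, 1.27 and 1.18 in day 0 untreated libraries. Every day 6 library lay far above every day 0 library. The log2 fold change was 3.36 ± 0.16 with IL-13 and 3.41 ± 0.16 without (± SE; adjusted p = 4.81e-14 and 2.4e-14), a rise of 10.3-fold and 10.6-fold. Hoxa5, a gene of lung and trunk that lies 10000 bases away, did not pass, with log2 changes of 0.51 ± 0.28 and 0.17 ± 0.24. The gene with the largest rise of all Hox genes in both arms was thus next to one that did not pass the test.

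Hoxa9, known from blood progenitors, had 45.1, 41.4, 41.7 and 48.4 CPM in day 6 IL-13 libraries and 56.3, 54.0, 49.0 and 54.6 in day 6 untreated libraries, against 10.1, 10.4, 10.4 and 9.14 CPM in day 0 IL-13 and 18.2, 15.2, 10.5 and 16.6 in day 0 untreated libraries. The days did not overlap, and day 0 untreated library 3 lay near the IL-13 libraries. The log2 fold change was 2.14 ± 0.12 with IL-13 and 1.82 ± 0.11 without (adjusted p = 8.24e-13 and 4.46e-12). Hoxa13, which shapes digits and the hindgut, had 5.01, 6.58, 5.08 and 4.90 CPM in day 6 IL-13 and 4.38, 5.53, 4.62 and 6.32 in day 6 untreated libraries, against 0.779, 0.950, 0.772 and 1.21 CPM in day 0 IL-13 and 1.38, 1.66, 1.09 and 0.857 in day 0 untreated libraries. It too stood apart between days, at 2.53 ± 0.21 and 2.07 ± 0.19 on the log2 scale (adjusted p = 4.15e-10 and 3.91e-09).

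Hoxa2, Hoxa3 and Hoxa7 rose less. Hoxa3, which patterns the thymus and parathyroid, changed by 1.03 ± 0.24 with IL-13 and 1.03 ± 0.20 without, and Hoxa7, a trunk gene, by 0.41 ± 0.10 and 0.68 ± 0.09. Hoxa2, which was tested only because of its day 6 level, is a gene of the hindbrain and the branchial arches and had a log2 change of 1.52 ± 0.51 and 1.80 ± 0.45 on low levels of 0.844 ± 0.428 and 1.29 ± 0.223 CPM at day 6, against 0.286 ± 0.285 and 0.364 ± 0.177 CPM at day 0, with IL-13 before untreated; its call with IL-13 was lost without day 6 IL-13 library 4 (adjusted p = 0.0622). Hoxa10 differed little between days, with 50.4 ± 4.23 and 57.1 ± 3.39 CPM at day 6, against 44.3 ± 2.75 and 53.5 ± 3.44 CPM at day 0. Its rise of 0.19 ± 0.07 with IL-13 passed (adjusted p = 0.0187), and was lost with total count scaling (0.0949). Day 6 IL-13 library 4 had 56.5 CPM of Hoxa10, against 47.0 to 49.3 CPM in the other day 6 IL-13 libraries. Without that library 10 Hox genes were higher with IL-13, against 12. Hoxa11, a gene of the forearm and uterus, fell by 0.42 with IL-13 (SE 0.10; adjusted p = 0.00065) and had a log2 change of 0.06 ± 0.10 in untreated cells. Hoxa6, with changes of 0.68 ± 0.39 and -0.05 ± 0.29, passed in neither arm.

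**Figure D2:**
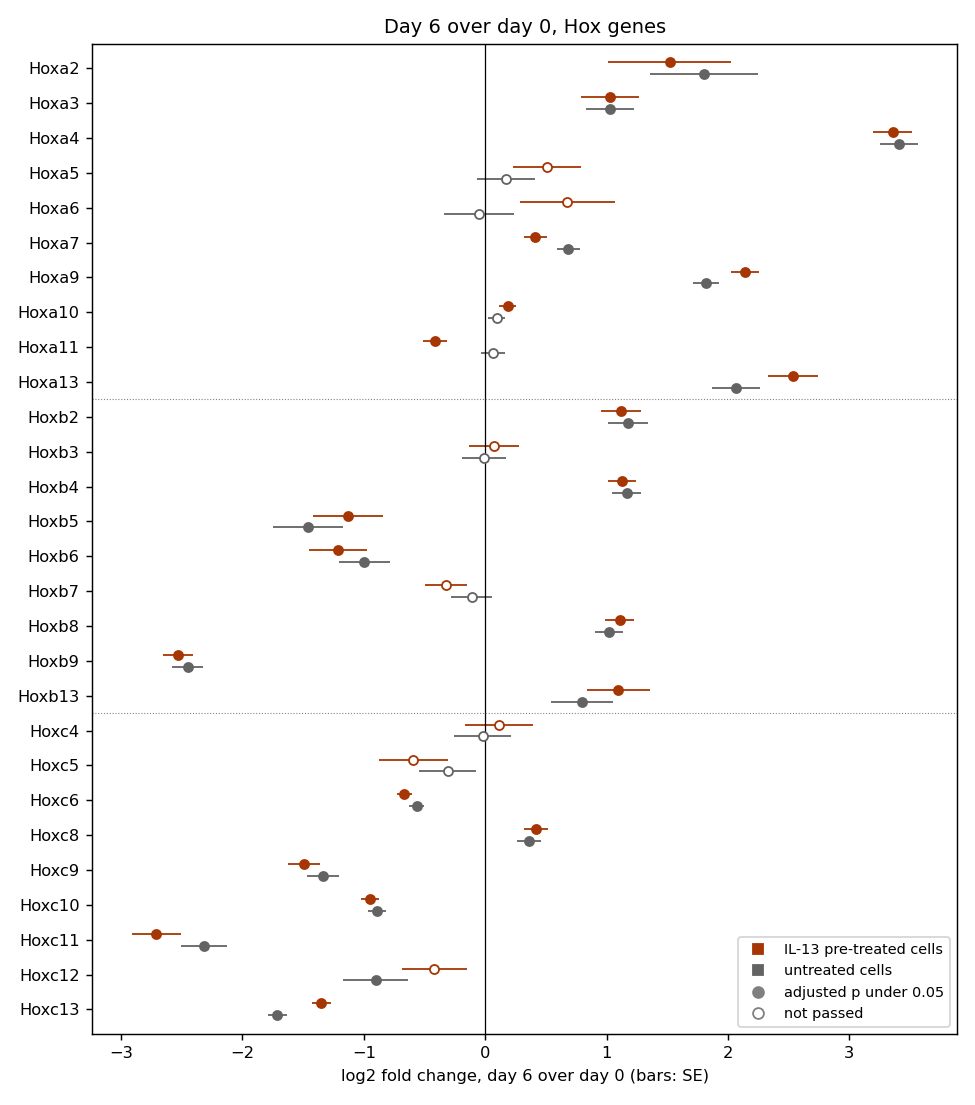
Log2 fold change of tested Hox genes, day 6 over day 0, in IL-13 pre-treated and untreated cells, with SE bars and filled points for adjusted p under 0.05. Hoxa4, Hoxa9 and Hoxa13 lie furthest right and Hoxb9 and Hoxc11 furthest left, and both arms lie close together for nearly all genes.

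In the Hoxb cluster 4 genes rose and 3 fell, and the direction switched between neighbours. Hoxb9, which patterns ribs, had 2.16, 1.92, 1.67 and 2.16 CPM in day 6 IL-13 libraries and 1.93, 1.84, 1.65 and 1.39 in day 6 untreated libraries, against 10.7, 11.4, 11.8 and 12.1 CPM in day 0 IL-13 and 8.504, 10.5, 9.67 and 8.67 in day 0 untreated libraries. All day 6 libraries lay below all day 0 libraries, with log2 fold changes of -2.53 ± 0.12 and -2.45 ± 0.13 (adjusted p = 7.03e-14 and 2.16e-13). Hoxb8, which lies 5309 bases from Hoxb9 and whose promoter is printed above, had 7.67, 7.07, 6.89 and 7.52 CPM in day 6 IL-13 and 8.37, 6.71, 7.13 and 7.72 in day 6 untreated libraries, against 3.89, 3.10, 3.38 and 3.13 CPM in day 0 IL-13 and 4.15, 3.51, 3.74 and 3.32 in day 0 untreated libraries. It moved the opposite way without overlap, by 1.11 ± 0.12 and 1.02 ± 0.11 (adjusted p = 2.34e-08 and 5.53e-08).

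Hoxb4, a gene that expands blood stem cells, and Hoxb2, a hindbrain gene, also rose, by 1.13 ± 0.12 and 1.12 ± 0.17 with IL-13 and by 1.16 ± 0.12 and 1.18 ± 0.16 in untreated cells. Hoxb13, known from the prostate, had a log2 change of 1.09 ± 0.26 with IL-13 and 0.80 ± 0.26 without, and the untreated call was lost without day 6 untreated library 1 (adjusted p = 0.0617). Hoxb5 and Hoxb6, which lie between Hoxb4 and Hoxb8, fell by 1.13 and 1.21 with IL-13 (SE 0.29 and 0.24) and by 1.46 and 0.99 without (SE 0.29 and 0.21), of which Hoxb5 was tested only because of its day 0 level. Hoxb3 and Hoxb7 passed in neither arm, at 0.07 ± 0.20 and -0.32 ± 0.17 with IL-13 and -0.01 ± 0.18 and -0.11 ± 0.17 without. From Hoxb2 to Hoxb9 the calls in both arms ran higher, none, higher, lower, lower, none, higher and lower.

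In the Hoxc cluster 6 genes fell in untreated cells and Hoxc8 alone rose. Hoxc10 had 49.0, 56.4, 61.9 and 60.2 CPM in day 6 IL-13 libraries and 50.2, 47.8, 52.8 and 49.3 in day 6 untreated libraries, against 104, 115, 115 and 105 CPM in day 0 IL-13 and 85.3, 91.2, 104 and 90.9 in day 0 untreated libraries. The days were separate in both arms, and the log2 fold change was -0.95 ± 0.07 with IL-13 and -0.89 ± 0.07 without (adjusted p = 1.37e-10 and 4.02e-10). Hoxc13, a gene of hair and nail, had 10.6, 10.3, 9.90 and 10.3 CPM in day 6 IL-13 and 8.56, 10.5, 9.17 and 10.2 in day 6 untreated libraries, against 27.4, 24.9, 25.6 and 26.8 CPM in day 0 IL-13 and 33.2, 28.4, 33.9 and 30.6 in day 0 untreated libraries. It stood apart between days at -1.35 ± 0.08 and -1.71 ± 0.08 (adjusted p = 1.87e-12 and 3.03e-14).

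Hoxc11, a hindlimb gene, had 0.618, 0.682, 0.669 and 0.991 CPM in day 6 IL-13 and 1.03, 1.31, 0.594 and 1.10 in day 6 untreated libraries, against 4.31, 4.69, 5.82 and 4.79 CPM in day 0 IL-13 and 5.12, 4.37, 5.76 and 5.14 in day 0 untreated libraries. Its log2 fold change of -2.71 ± 0.20 and -2.32 ± 0.19 (adjusted p = 9.83e-11 and 4.2e-10) was the largest fall of the cluster in each arm. Hoxc6 and Hoxc9, genes of the chest region, fell by 0.67 and 1.49 with IL-13 (SE 0.06 and 0.13) and by 0.56 and 1.34 without (SE 0.06 and 0.13). Hoxc8, which patterns the lower chest and lies between them, rose by 0.42 ± 0.10 and 0.36 ± 0.10 (adjusted p = 0.000769 and 0.00236). Hoxc12 passed in untreated cells alone, at -0.90 ± 0.27, with -0.42 ± 0.27 in IL-13 cells; the difference between the arms was 0.48 ± 0.38 and did not pass (adjusted p = 0.524). Hoxc4 and Hoxc5 passed in neither arm.

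**Figure D3:**
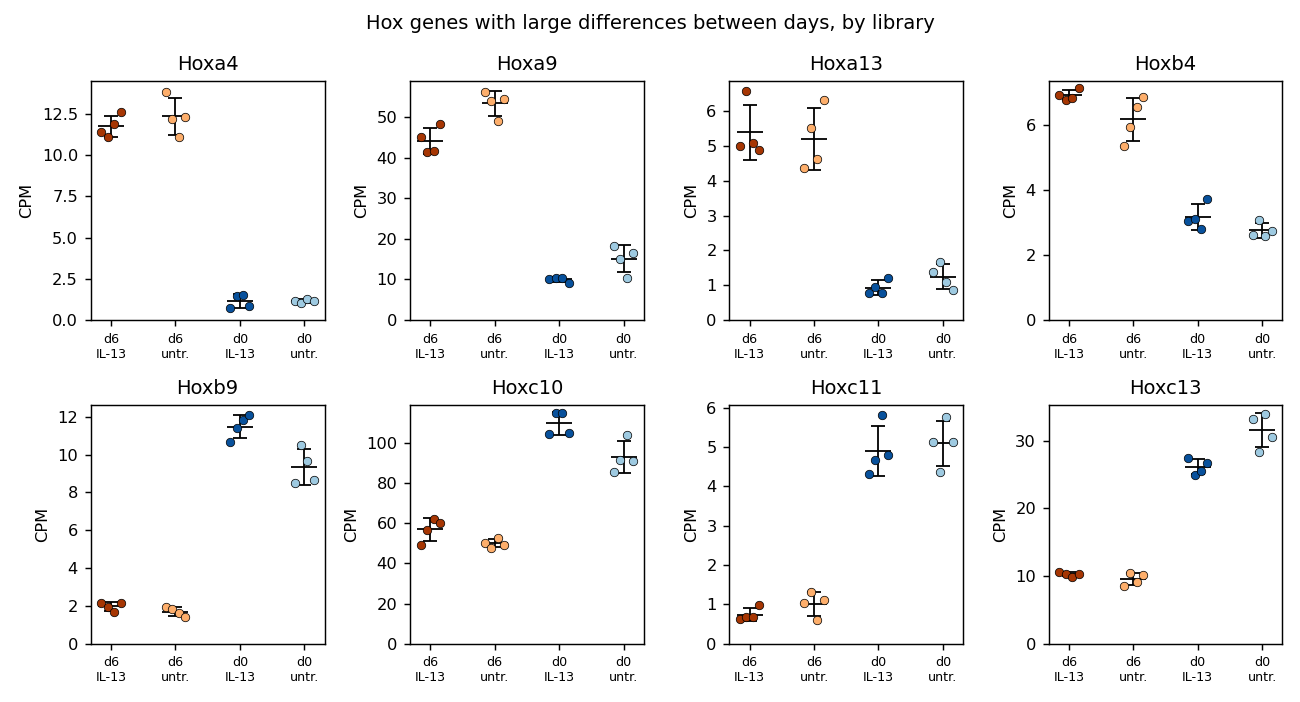
CPM in each of the 16 libraries for 8 Hox genes, with the mean and SD of the 4 libraries of a group, on linear axes from 0. For the genes of the top row day 6 lies above day 0, for Hoxb9, Hoxc10, Hoxc11 and Hoxc13 below, in IL-13 pre-treated (IL-13) and untreated (untr.) cells alike.

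Read by number in untreated cells, 11 paralog groups had at least 2 tested members. Both members rose in groups 2 and 8, with the limit on Hoxa2 given above. In groups 9 and 13 members were called in opposite directions, with Hoxa9 higher and Hoxb9 and Hoxc9 lower, and with Hoxa13 and Hoxb13 higher and Hoxc13 lower. In the other 7 groups some members passed, all in 1 direction. By region, of 5 genes numbered 1 to 3, 3 rose and none fell. Of 13 genes numbered 4 to 8, 5 rose and 3 fell, and of 11 genes numbered 9 to 13, 3 rose and 6 fell. Of all tested genes 41.5% rose and 39.0% fell. With IL-13 the counts were 3 and none, 5 and 3, and 4 and 6, against 40.6% and 40.3% of all genes. Hoxa2 is among the rises of the first region and Hoxb5 among the falls of the second, and each was tested through 1 day alone. The sets are small, and a difference between regions was not tested.

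The pre-treated and untreated arms share no library. In both, 11 Hox genes were higher and 8 lower, 7 passed in neither, none had opposite calls, and across the 29 genes the log2 changes correlated with r = 0.98, a description over genes, which are not independent replicates. Gene models overlap in places, and whether the counting used the strand is not given in the sources used here. Of the genes just named, Hoxb2 shares 27.3% of its exon bases with Hoxb3os on the other strand, Hoxa4 shares 16.0% with Gm29430, Hoxa7 20.4% with Hoxaas3 and Hoxa11 35.0% with Hoxa11os, while Hoxa9 shares 1.52% with a microRNA and Hoxb8, Hoxb9, Hoxc11 and Hoxc13 share none. Hoxb3 shares 52.9% with Hoxb3os and Hoxa3 25.4% with genes of the other strand. Hoxc10 and Hoxc5 share exon bases on the same strand, 8.70% of the Hoxc10 model and 5.37% of the Hoxc5 model, while Hoxa2 and Hoxa3 share 15.04% and 8.01% with Gm28308 and the silent Hoxd3 shares 62.3% with other genes of its strand, so the values of all these genes are uncertain to that extent. The nuclear RNAs Malat1 and Neat1 were also higher at day 6, by 1.33 ± 0.40 and 1.16 ± 0.44 with IL-13 and by 0.95 ± 0.38 and 1.23 ± 0.37 without (adjusted p between 0.00808 and 0.0342), and their part in the day differences was not tested.

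Before differentiation, Hoxa3, Hoxb3, Hoxc4, Hoxa5, Hoxc5, Hoxa6, Hoxa9, Hoxa10 and Hoxc13 were lower in cells given IL-13, and Hoxa11, Hoxb9 and Hoxc10 were higher. In counts at day 0, 9 of 28 tested Hox genes were lower and 3 higher in IL-13 cells, against 24.2% lower and 23.7% higher of all 12274 genes tested (47.9% in either direction). Leaving out untreated library 1, untreated library 4 or IL-13 library 4 left 1 rise each time. With total count scaling 11 Hox genes were lower and the 3 rises were lost, and the split of all genes changed to 1682 higher and 4523 lower, against 2912 and 2969; that scaling moved the median of all genes to -0.13, against -0.01. The median log2 change was -0.12 over the Hox genes. Libraries of the groups did not overlap for 8 of 28 Hox genes, against 40.4% of all genes.

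The largest falls were in weakly expressed genes. Hoxa6, a gene of the neck and upper trunk, had 0.479, 0.190, 0.534 and 0.320 CPM in IL-13 libraries, against 1.28, 0.862, 0.864 and 1.499 CPM in untreated libraries (log2 change -1.56 ± 0.34, adjusted p = 0.00169). The groups did not overlap. Hoxa5 had 1.74, 1.39, 1.31 and 2.43 CPM in IL-13 libraries, against 4.71, 3.14, 2.25 and 4.50 CPM in untreated libraries (-1.12 ± 0.26, adjusted p = 0.00347), and IL-13 library 4 lay above untreated library 3. Hoxa3 had 1.38, 1.39, 1.13 and 1.47 CPM in IL-13 libraries, against 3.48, 1.97, 2.25 and 3.05 CPM in untreated libraries, with no overlap (-1.03 ± 0.22, adjusted p = 0.00147). In all 3, untreated libraries 1 and 4 were the highest of their group.

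Hoxc4 and Hoxc5, both genes of the neck and upper trunk, changed by -0.98 ± 0.26 and -0.87 ± 0.20 (adjusted p = 0.00673 and 0.00282). Hoxc5 had 1.38, 1.84, 2.08 and 1.73 CPM in IL-13 libraries, against 4.20, 2.71, 2.53 and 3.16 in untreated libraries, without overlap. Hoxc4 had 1.32, 1.33, 1.31 and 1.15 CPM in IL-13 libraries, against 3.23, 2.22, 1.32 and 3.16 in untreated libraries, where library 3 reached the IL-13 level. Hoxb3 fell by 0.66 (SE 0.20, adjusted p = 0.0126), Hoxa9 by 0.61 (SE 0.14, adjusted p = 0.00387), Hoxa10 by 0.29 (SE 0.07, adjusted p = 0.00237) and Hoxc13 by 0.28 (SE 0.07, adjusted p = 0.00431). The 3 rises were small and in high-numbered genes, at 0.26 ± 0.09 for Hoxa11 (adjusted p = 0.027), 0.29 ± 0.09 for Hoxb9 (adjusted p = 0.0197) and 0.23 ± 0.06 for Hoxc10 (adjusted p = 0.00637). Hoxc10 had 104, 115, 115 and 105 CPM in IL-13 libraries, against 85.3, 91.2, 104 and 90.9 CPM in untreated libraries, which did not overlap.

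The other 16 tested genes did not pass at day 0. Hoxa4, Hoxa7, Hoxb4, Hoxb8 and Hoxc6, which all differed between the days, had log2 changes of -0.04 ± 0.26, 0.10 ± 0.11, 0.19 ± 0.15, -0.14 ± 0.14 and -0.05 ± 0.06 with IL-13. Of these Hoxc6 had the narrowest 95% interval, -0.17 to 0.07.

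**Figure D4:**
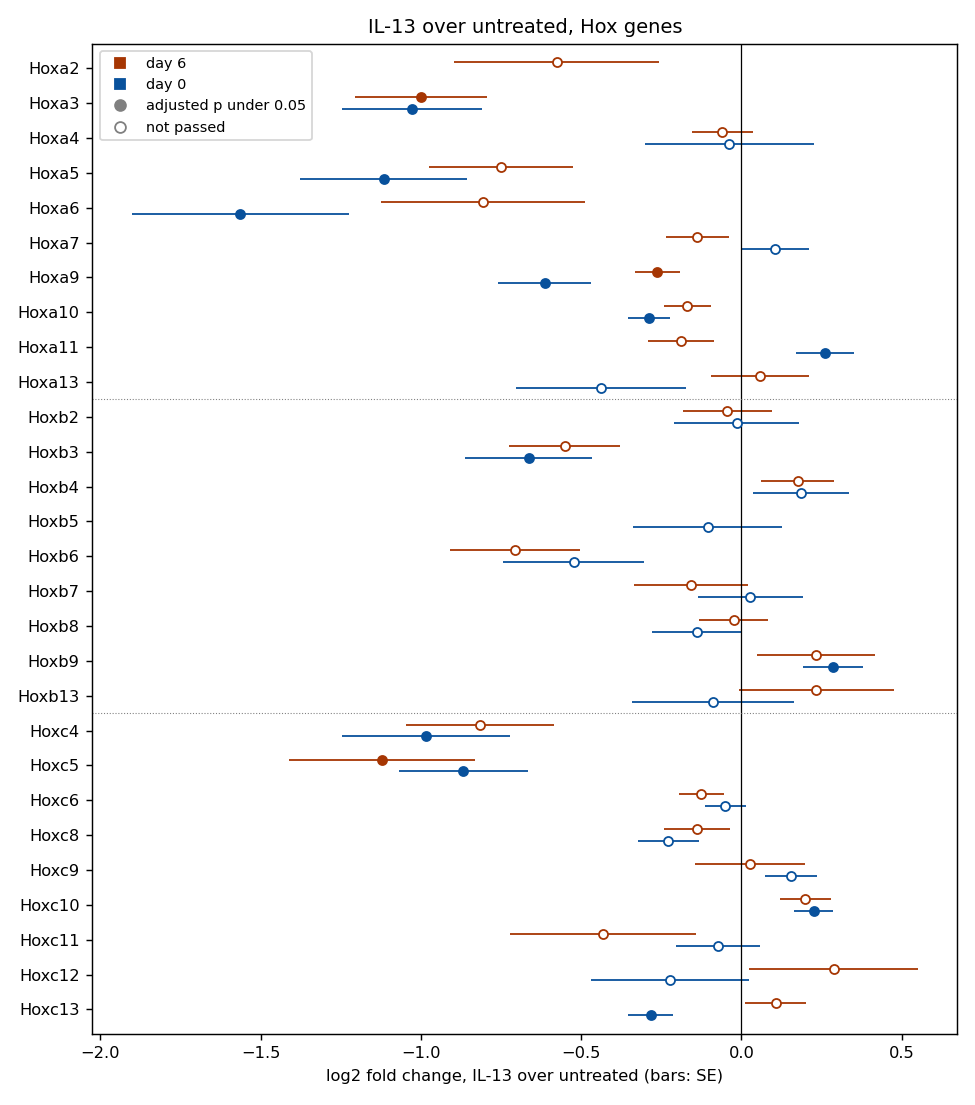
Log2 fold change of tested Hox genes, IL-13 over untreated, at day 6 and at day 0, with SE bars and filled points for adjusted p under 0.05. Hoxa3, Hoxa5, Hoxa6, Hoxc4 and Hoxc5 lie furthest left at both days, while the filled rises of Hoxa11, Hoxb9 and Hoxc10 at day 0 lie between 0.23 and 0.29.

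RNAs that stay in the nucleus were lower with IL-13 at day 0 as well. Malat1 had 51.7, 44.2, 30.2 and 54.2 CPM in day 0 IL-13 libraries, against 248, 169, 81.9 and 192 CPM in day 0 untreated libraries. Neat1 had 15.04, 13.8, 10.4 and 15.8 CPM in IL-13 libraries, against 99.6, 54.7, 30.5 and 83.1 CPM in untreated libraries. Both were highest in untreated libraries 1 and 4 and lowest in untreated library 3, the order that Hoxc4, Hoxc5, Hoxa5, Hoxa9 and Hoxa10 also showed in that group. Hoxa3, Hoxa6 and Hoxb3 were highest in libraries 1 and 4 but lowest in library 2. Hoxc13 had 33.2, 28.4, 33.9 and 30.6 CPM in the untreated libraries, with its highest value in library 3. Without untreated libraries 1 and 4, which were named for their nuclear RNA in an earlier analysis of these data, 1 Hox gene was called, Hoxc13 (lower, adjusted p = 0.0469), and 3485 genes in all; Hoxa6, Hoxa3 and Hoxa5 then changed by -1.15 ± 0.42, -0.66 ± 0.24 and -0.65 ± 0.27 (adjusted p = 0.0538, 0.0556 and 0.0901). The part of nuclear RNA in the Hox differences was not tested.

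At day 6 Hoxa3, Hoxa9 and Hoxc5 were lower in cells given IL-13. Of 28 tested Hox genes 3 were lower and none higher, against 4.34% lower and 2.21% higher of all 12352 genes (6.55% in either direction), and 10 had an unadjusted p under 0.05. With DESeq2 5 were lower and none higher. Libraries did not overlap for 8 of 28 Hox genes, against 15.5% of all genes. Hoxa3 had 3.15, 3.10, 2.54 and 2.16 CPM in IL-13 libraries, against 7.15, 5.70, 5.61 and 3.71 CPM in untreated libraries (-1.001 ± 0.21, adjusted p = 0.0226). Hoxc5 had 1.73, 0.682, 0.869 and 1.34 CPM in IL-13 libraries, against 3.41, 2.79, 2.24 and 1.80 CPM in untreated libraries (-1.12 ± 0.29, adjusted p = 0.0438). Neither overlapped, and in both untreated library 1 was the highest. Hoxa9 had a change of -0.26 ± 0.07 (adjusted p = 0.0473).

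Hoxa5, Hoxa6, Hoxb3, Hoxb6 and Hoxc4 also had all IL-13 libraries below all untreated libraries at day 6 and did not pass, at -0.75 ± 0.23, -0.81 ± 0.32, -0.55 ± 0.17, -0.71 ± 0.20 and -0.81 ± 0.23 (adjusted p = 0.0646, 0.13, 0.0728, 0.0563 and 0.0537). Malat1 had 177, 109, 74.0 and 91.2 CPM in day 6 IL-13 libraries, against 465, 435, 211 and 229 CPM in untreated libraries, and Neat1 had 43.4, 30.6, 19.6 and 29.0 CPM, against 237, 188, 89.9 and 116 CPM. Without untreated libraries 1 and 2, the highest in both, no Hox gene was called (8 at an unadjusted p under 0.05) and 2 genes in all, and Hoxa3 changed by -0.76 ± 0.23. With 1 library left out at a time, the day 6 calls ranged from 0 to 7 Hox genes: there were 0 without untreated library 1, untreated library 2, IL-13 library 2 or IL-13 library 3, and 7 without IL-13 library 1 (6 lower and 1 higher). With total count scaling the genes at large split into 53 higher and 1032 lower, against 273 and 536, and 7 Hox genes were lower.

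**Figure D5:**
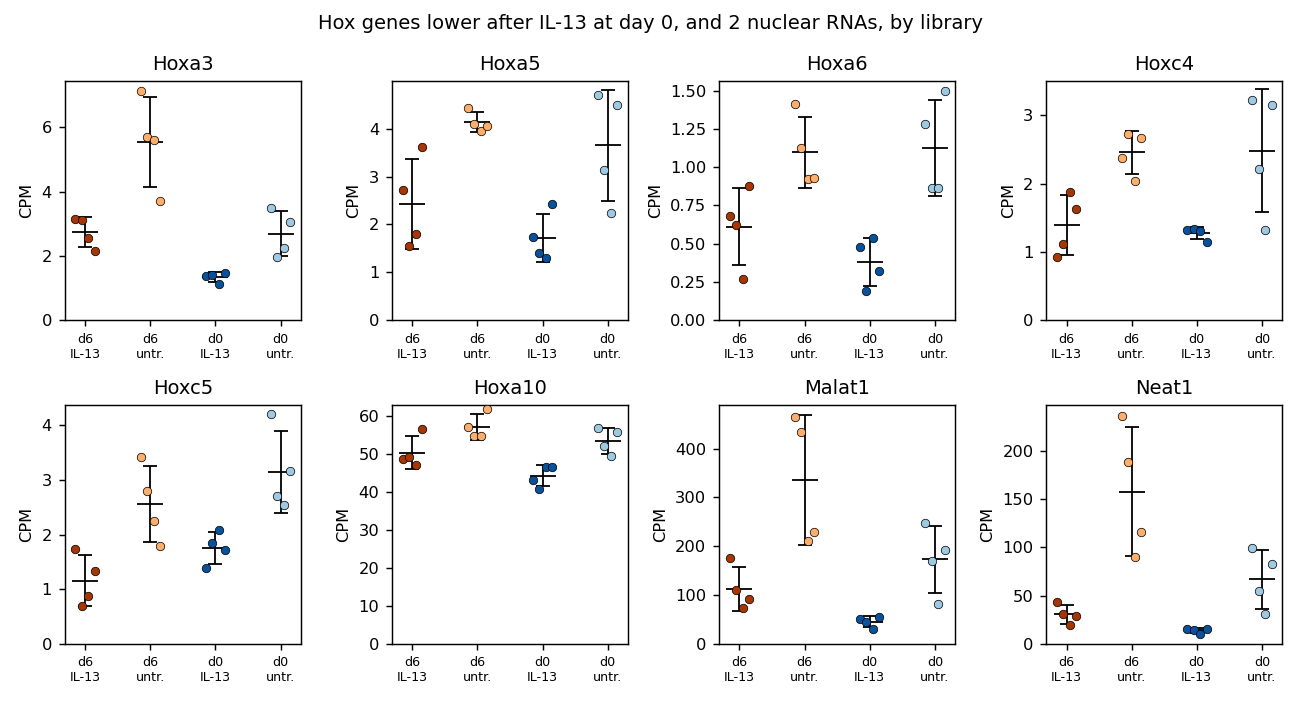
CPM in each of the 16 libraries for Hoxa3, Hoxa5, Hoxa6, Hoxc4, Hoxc5 and Hoxa10 and for the nuclear RNAs Malat1 and Neat1, with the mean and SD of each group. In day 0 untreated cells (d0 untr.) the highest points of Hoxa5, Hoxa6 and Hoxc4 belong to libraries 1 and 4, as do those of Malat1 and Neat1.

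The IL-13 effect at day 6 differed from that at day 0 for 1 of 29 Hox genes, which had a lower effect at day 6, against 8.06% of all genes (3.12% higher and 4.95% lower). Hoxa11 had 11.01, 12.3, 12.8 and 13.2 CPM in day 6 IL-13 libraries, against 13.3, 13.1, 13.8 and 16.4 in day 6 untreated libraries, and 15.5, 15.8, 16.7 and 17.8 CPM in day 0 IL-13 libraries, against 13.2, 13.5, 15.8 and 11.9 in day 0 untreated libraries. IL-13 libraries lay mostly lower at day 6 and mostly higher at day 0, with a difference of -0.48 ± 0.14 (adjusted p = 0.0373). The call was kept with the replicate numbers as a block and without day 0 untreated library 3; it was lost without any other single library and with the other normalizations, with DESeq2 and with no low count filter, where the adjusted p lay between 0.0508 and 0.111. Hoxc13 had a difference of 0.36 ± 0.11 and just missed (adjusted p = 0.0546), and it passed under all 4 of those alternatives. Of all genes 410 had a higher and 651 a lower effect at day 6; with DESeq2's size factors 509 were higher and 505 lower, and with total count scaling 516 and 498.

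Non-coding genes inside the clusters passed the filter in 6 cases. Of these Hoxb3os, Hotairm1 and Hoxaas3 passed through their day 6 libraries alone and Gm53 through its day 0 libraries alone, so their day differences below are a description. Hoxb3os, which overlaps Hoxb2 and Hoxb3 on the other strand, rose 4.92-fold with IL-13 and 4.98-fold without at day 6, on 310 counts in all. Gm53, which lies between Hoxb13 and Hoxb9, fell 6.07-fold and 6.50-fold on 213 counts, alongside Hoxb9. Hotairm1, at the anterior end of the Hoxa cluster, rose 2.57-fold and 2.17-fold, and Hoxaas3, which overlaps Hoxa3 and Hoxa7 on the other strand, rose 2.23-fold and 2.42-fold (adjusted p = 0.019, 0.0475, 0.0357 and 0.0192), both on few counts. Hoxa11os and Gm15050 were higher with IL-13 at day 0, by 0.38 ± 0.13 and 0.81 ± 0.26 (adjusted p = 0.0287 and 0.0193). Without the strand, reads of Hoxa11 and Hoxa11os, or of Hoxb2, Hoxb3 and Hoxb3os, cannot be told apart. Hotair in the Hoxc cluster had 76 counts and Hottip beyond Hoxa13 had 6 counts over all libraries, and both failed the filter.

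The TALE cofactors of Hox proteins were mostly lower at day 6. In untreated cells 8 of 11 fell and 1 rose, against 39.0% and 41.5% of all genes, with a median log2 change of -1.19, against 0.04. With IL-13 the counts were also 8 and 1, against 40.3% and 40.6%. Meis1, a partner of Hox proteins on DNA, averaged 10.5 ± 1.46 CPM in day 6 IL-13 and 12.7 ± 1.91 in day 6 untreated libraries, against 31.2 ± 2.12 in day 0 IL-13 and 37.1 ± 2.04 in day 0 untreated libraries (SD, n = 4). In untreated cells Meis1, Pbx3 and Tgif1, a repressor of the family, fell by 1.55, 1.31 and 1.13 (adjusted p = 7.75e-12, 5.11e-12 and 3.26e-12). At day 0, IL-13 cells had 5 of 11 lower and 1 higher, against 24.2% and 23.7% of all genes, led by Tgif1 at -0.53 ± 0.06 and by Pknox2, which was higher at 0.43 ± 0.06. At day 6 the 11 genes had a median IL-13 change of -0.03, and the difference between the days passed for both Tgif1, at 0.40 ± 0.10, and Pknox2, at -0.36 ± 0.11 (adjusted p = 0.0135 and 0.0491).

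Polycomb and Trithorax regulators were split. In untreated cells 9 of 26 rose and 10 fell at day 6, against 41.5% and 39.0% of all genes, with a median of -0.03. Jarid2, which helps recruit the Polycomb complex that methylates histone H3, had 55.6 ± 5.97 CPM in day 6 IL-13 and 63.3 ± 3.43 in day 6 untreated libraries, against 8.44 ± 1.48 in day 0 IL-13 and 12.8 ± 0.745 in day 0 untreated libraries. It rose by 2.30 ± 0.09 in untreated cells, and Dot1l, a histone methyltransferase, by 1.82 ± 0.10, while Cbx6 and Phc1, subunits of the other Polycomb complex, fell by 1.43 and 1.42 (adjusted p = 3.72e-15, 7.86e-13, 9.67e-15 and 1.43e-13). Ezh2, the methyltransferase subunit, had a log2 change of -0.03 ± 0.07. At day 0, 13 of 26 were lower with IL-13, against 24.2% of all genes, and the others did not pass, with Ezh2 at -0.33 ± 0.05 and Kmt2b, a Trithorax methyltransferase, at -0.40 ± 0.07 (adjusted p = 0.000197 and 0.000549). In day 0 untreated libraries Kmt2b had 47.2, 41.0, 42.4 and 51.0 CPM, highest in libraries 1 and 4, as Malat1 and Neat1 were. Ezh2 had 78.7, 81.8, 71.8 and 77.4 CPM there, highest in library 2. The part of nuclear RNA in these falls was not tested. At day 6, 1 of 26 was lower with IL-13, against 4.34% of all genes.

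Other transcription factors that mark position were mostly lower at day 6. Of 38 listed, 22 were tested over the 16 libraries, against 20 at day 0 and 19 at day 6. Some thus passed the filter through 1 day alone, which favoured their direction. In untreated cells 18 fell and 3 rose, against 39.0% and 41.5% of all genes, with a median log2 change of -1.11. With IL-13, 19 fell and 3 rose, against 40.3% and 40.6%. Tbx15, a factor of subcutaneous fat and limb skeleton, had 15.8 ± 1.13 CPM in day 6 IL-13 and 16.1 ± 1.39 in day 6 untreated libraries, against 41.4 ± 1.70 in day 0 IL-13 and 42.2 ± 1.12 in day 0 untreated libraries. Its fall of 1.39 in untreated cells stood beside falls of 1.64 for Prrx1, a limb mesenchyme factor, 1.75 for Shox2, a factor of the proximal limb, and 3.82 for Foxc2, a mesoderm factor (adjusted p = 8.57e-14, 9.15e-14, 7.94e-13 and 2.99e-12). Foxc2 held 2 to 10 counts in the day 6 libraries and was tested only because of its day 0 level, so the filter favoured its fall. At day 0, 6 of 20 tested were higher with IL-13 and 5 lower, near the 23.7% and 24.2% of all genes, and the rises were led by Irx3 at 1.40 ± 0.16 and Emx2 at 0.66 ± 0.09 (adjusted p = 7.32e-06 and 6.37e-05). The IL-13 effect on both was lower at day 6, with differences of -1.36 ± 0.29 and -0.83 ± 0.16 (adjusted p = 0.00385 and 0.00164).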

How the data were processed

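Polyadenylated RNA of 16 libraries was measured. Per the file headers, the authors deposited a table for each day with a total read count per gene, whole numbers without normalization, and TPM values scaled to transcript length and depth. The submitters' processing notes name the build mm10; the aligner, the counting tool and the strand setting were not given in the sources used here. All 38 members have the coordinates of GENCODE M21 (GRCm38). Tests on the counts used edgeR 4.0.16 under R 4.3.3 (quasi-likelihood F test, robust fit), TMM scaling and edgeR's expression filter (minimum count 10, minimum total 15), and p-values were adjusted by Benjamini-Hochberg over all tested genes. IL-13 comparisons used the 8 libraries of their day; day comparisons and the difference of IL-13 effects used all 16 libraries. SE is the log2 change over the root of its F statistic. CPM use TMM-scaled library sizes of the 16-library fit; 95% intervals are the log2 change ± 1.96 SE. Replicate libraries all differed by more than sampling noise. The fit was tested on simulated data. Alternatives were DESeq2 1.42.0, other scalings, no filter, other sets of libraries and the replicate numbers as a block. The members, gene lists, tests and left-out libraries were chosen with earlier results of these data known. Members are named except where a gene is not reported here, though all enter the counts, medians and shares; of the other lists, up to 4 genes with the smallest p between days in untreated cells and up to 2 in the day 0 IL-13 comparison, with cluster non-coding genes that passed the filter; Malat1, Neat1, Hotair and Hottip were named after their values were seen. The intervals and floors cover counting error or library spread only.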

Additional observations from a re-analysis of the deposited data

Results flagged for a closer look

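Among the 116 sets of 4 libraries checked for the 29 tested Hox genes, 3 held a library far from the others, and chance alone flags about 1 in 20 such sets. Hoxa13 had 6.58 CPM in day 6 IL-13 library 2, against 4.90 to 5.08 CPM in the other day 6 IL-13 libraries. Hoxc12 had 2.41 CPM in day 0 IL-13 library 2, against 1.42 to 1.56 CPM in the others. Hoxc4 had 1.15 CPM in day 0 IL-13 library 4, against 1.31 to 1.33 CPM in the others. The IL-13 effect on Hoxa11 differed between the days, by -0.48 on the log2 scale (day 6 minus day 0), as described above, with a call that most alternatives lost.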

How the results depend on the processing

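No called Hox gene changed sign under any alternative, but the split of all genes did. The difference of effects had 410 higher and 651 lower genes, against 509 and 505 with DESeq2 size factors, 516 and 498 with total count scaling, 627 and 593 with DESeq2 and 522 and 446 without the low count filter, and in these 4 its 1 Hox call was Hoxc13, higher, in place of Hoxa11, lower. IL-13 at day 0 had 2912 and 2969, against 2834 and 2731 with DESeq2. The day 6 against day 0 counts stayed within 1.5 times of the reported ones in each. Leaving out 1 library at a time gave 10413 to 10658 genes and 19 to 22 Hox genes in the IL-13 arm, 10434 to 10545 genes and 19 to 20 Hox genes in untreated cells, 4823 to 6593 genes and 9 to 14 Hox genes for IL-13 at day 0, 60 to 2328 genes and 0 to 7 Hox genes for IL-13 at day 6, and 836 to 1269 genes and 0 to 2 Hox genes for the difference of effects. For IL-13 at day 6, DESeq2 called 1436 genes and 5 Hox genes, total count scaling 7 Hox genes, and the fit of all 16 libraries 1405 genes, against 809 and 3. Without untreated libraries 1 and 4, IL-13 at day 0 gave 3485 genes and 1 Hox gene, and without untreated libraries 1 and 2, IL-13 at day 6 gave 2 genes and 0 Hox genes. With replicate numbers as a block, IL-13 at day 6 gave 2812 genes and 9 Hox genes (8 lower, 1 higher), and the difference of effects 1608 genes and 2 Hox genes, against 1061 and 1. Same-numbered libraries correlated at 0.14, 0.04, 0.14 and 0.21 at day 6 and 0.10, -0.05, 0.13 and 0.04 at day 0, and not every library correlated best with its own number, so the numbers were not taken as pairs. The causes were not tested. Depth limits Hox genes near 1 CPM, such as Hoxa2, Hoxa6, Hoxb5 and Hoxc11 at day 6.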
